A study of Mus musculus with 6 samples.

Results

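CXC chemokines are small secreted proteins that guide leukocytes through receptors of the CXCR family. Cxcl1, Cxcl2 and Cxcl3 attract neutrophils through CXCR2 and are classical targets of NF-κB, whereas Cxcl9 and Cxcl10 attract activated T and NK cells through CXCR3 and are induced by interferons. Pf4 (Cxcl4) is stored in platelet granules and is also made by tissue macrophages, Cxcl12 is a largely stromal ligand of CXCR4, and Cxcl14 is made mainly by epithelial and stromal cells. In injured muscle, neutrophils enter first and macrophages (MPs) turn from a Ly6CHigh to a Ly6CLow state as repair proceeds.

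The values of 8 genes, Cxcl1, Cxcl2, Cxcl3, Cxcl9, Cxcl10, Cxcl12, Cxcl14 and Pf4, were examined in RNA-seq data of sorted Ly6CLow MPs. They were chosen by name from a list of Cxcl genes with Pf4, and selected on presence in the table of 13008 genes, in which all 8 were found. Presence rests on measured reads and is given as a description. The table holds 3 further CXC ligands of 7 listed (Cxcl13, Cxcl16 and Ppbp) and 4 of 8 listed receptors (Cxcr2, Cxcr3, Cxcr4 and Ackr3), and the other listed ligands and receptors were not analysed here. Presence did not require many reads, since Cxcl13 had between 0 and 5 reads in a sample, whereas the least covered of the 8 genes, Cxcl12, had between 52 and 93.

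The cells, labelled macrophages, came from muscles of C57BL/6J males, 3 months old by the labels, on day 5 after injection of cardiotoxin, a snake venom toxin that destroys muscle fibers. There were 3 samples labelled wild type (Control) and 3 labelled Tg:LysMCre::Cripto-/- (Cripto KO). By the study's description the cells of both groups were sorted as GFP+/F4/80+/Ly6CLow and carried Tg:LysMCre and the R26mTmG reporter, in which Cre turns on GFP, and the Cripto KO mice carried in addition Cripto fl/fl alleles. The Control mice would then differ from their wild-type label. Cre under lysozyme M control acts in the myeloid lineage, and in the study's own test deletion of Cripto was incomplete, more so over all MPs than in the GFP+ cells that were sorted. No source used here says whether a sample is 1 animal or a pool, so p-values measure the spread between these samples. The deleted gene, Tdgf1, was not analysed here and no check of the genotype rests on it.

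The recovered reads summed to 12688968 to 14141773 in the Control samples against 14633880 to 15659847 in the Cripto KO samples. MP genes were abundant in all samples, as for C1qb (a complement subunit, 4157 to 4688) and C1qa (3718 to 4269). Xist and Lyz2 were checked for samples that stand apart, and each gene had 1 such Control sample. The other genes were not searched in this way. Xist, the RNA that silences the second X chromosome of females, was 171 in Control replicate 1 and at most 0.885 elsewhere, against its male label. Lyz2, the gene that hosts Cre in this line, was 11066 in Control replicate 2 and at most 28.3 elsewhere. The log2 fold changes of the 8 genes are given without these samples where leaving one out moved them. Muscle fiber RNA was highest in the sample numbered 1 of each group: the 10 muscle fiber genes summed to 47.8 to 101.7 in the Control samples against 20.9 to 68.1 in the Cripto KO samples. In bulk RNA, fewer cells of a type and less RNA per cell cannot be told apart.

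Of the 8 genes, 6 lie on chromosome 5 of GRCm38. Pf4 (90772435 to 90773383), Cxcl3 (90786103 to 90789600), Cxcl1 (90891241 to 90893115) and Cxcl2 (90903871 to 90905938) lie on the plus strand within 133504 bases. Cxcl9 (92321347 to 92328079) and Cxcl10 (92346638 to 92348889) are neighbors on the minus strand, with 18558 bases between them. Cxcl12 is on chromosome 6 (117168535 to 117181367, plus strand) and Cxcl14 on chromosome 13 (56288643 to 56296551, minus strand). The table's identifiers are ENSMUSG00000029380 (Cxcl1), ENSMUSG00000058427 (Cxcl2), ENSMUSG00000029379 (Cxcl3), ENSMUSG00000029417 (Cxcl9), ENSMUSG00000034855 (Cxcl10), ENSMUSG00000061353 (Cxcl12), ENSMUSG00000021508 (Cxcl14) and ENSMUSG00000029373 (Pf4).

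The sequence upstream of the start sites is shown because it is where interferon-regulated and NF-κB-regulated members are held to differ, and because Cxcl9 and Cxcl10 are contrasted below with the others. RefSeq windows (GRCm38.p6) were found for 10 of the 11 ligands (all but Cxcl16), and the 250 bases before the start were searched on both strands. Capitals mark matches to the κB consensus, to GGGAAATTCC, to the core of the interferon-stimulated response element (GAAA repeated after any 2 bases) or to the core of the interferon-gamma-activated site, GAS (TTCNNNGAA). Each stretch runs 5′ to 3′ on the strand of its gene and ends 29 bases before the start, and Pf4 is shown as a member without a match. The stretches are chr5:92348918-92349139 (Cxcl10), chr5:92328108-92328329 (Cxcl9), chr5:90891115-90891216 (Cxcl1), chr5:90903769-90903870 (Cxcl2), chr5:90785971-90786072 (Cxcl3) and chr5:90772305-90772406 (Pf4).
Cxcl10: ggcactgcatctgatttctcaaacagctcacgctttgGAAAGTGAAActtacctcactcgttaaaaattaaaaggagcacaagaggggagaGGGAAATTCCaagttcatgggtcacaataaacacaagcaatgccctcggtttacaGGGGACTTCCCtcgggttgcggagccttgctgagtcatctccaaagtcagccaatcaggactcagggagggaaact
Cxcl9: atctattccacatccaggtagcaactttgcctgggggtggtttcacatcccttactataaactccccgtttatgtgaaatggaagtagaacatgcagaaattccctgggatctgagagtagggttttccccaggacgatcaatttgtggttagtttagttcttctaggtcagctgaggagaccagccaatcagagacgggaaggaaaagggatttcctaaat
Cxcl1: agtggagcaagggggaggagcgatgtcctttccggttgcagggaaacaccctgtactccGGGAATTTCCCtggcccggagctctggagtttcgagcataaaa
Cxcl2: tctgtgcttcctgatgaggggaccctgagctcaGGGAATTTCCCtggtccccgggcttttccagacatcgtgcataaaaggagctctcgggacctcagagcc
Cxcl3: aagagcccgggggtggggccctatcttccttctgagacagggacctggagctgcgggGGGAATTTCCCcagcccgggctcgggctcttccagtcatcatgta
Pf4: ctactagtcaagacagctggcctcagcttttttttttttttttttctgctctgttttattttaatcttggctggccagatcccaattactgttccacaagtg

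Cxcl1, Cxcl2, Cxcl3 and Cxcl10 held the κB consensus, which 7.25% of 32851 windows hold. The word GGGAAATTCC, one form of the consensus and overlapping it wherever it occurs, was chosen after the sequences had been read. It was picked as the form that these 4 have in common, so that they hold it is no result. The share of all windows that hold it, 0.0974%, is therefore no measure of enrichment. In Cxcl1, Cxcl2 and Cxcl3 it lay on the other strand, from -70 to -61, from -96 to -87 and from -72 to -63, and in Cxcl10 on the strand of the gene from -159 to -150. Cxcl10 had further overlapping matches to the consensus from -104 to -94, and a match to the response element core from -213 to -204 (2.98% of windows hold one). Cxcl14 also matched the response element core, from -172 to -163, and was the one member with TTCNNNGAA (7.02% of windows), from -191 to -183. Cxcl9, Cxcl12 and Pf4 had no match to these 4 motifs, which says only that these letters are not in this window. Cxcl9 and Cxcl10, named together as interferon-induced, thus did not share a match in this search, while Cxcl10 held the κB consensus, as the neutrophil attractants did.

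**Figure D1:**
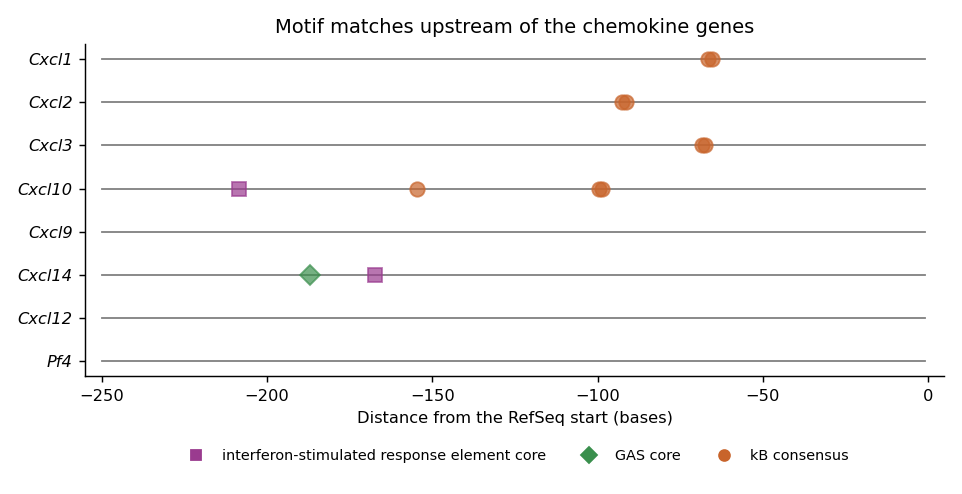
Matches to the κB consensus (circles), the interferon-stimulated response element core (squares) and the GAS core (diamond) in the 250 bases before the RefSeq start of 8 genes, with the distance from the start in bases on the x axis. Cxcl1, Cxcl2 and Cxcl3 each have their match within 100 bases of the start, Cxcl10 has matches of both kinds and Cxcl9 has none.

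Levels of different genes were compared as the normalized value per kilobase of the longest coding transcript. Pf4 was highest, with a mean of 1109 over the 6 samples, followed by Cxcl2 at 779, and their ranges over the samples (949 to 1231 and 587 to 1045) overlapped. Cxcl1 followed at 290 (185 to 425), then Cxcl10 at 93.1 (71.6 to 118), Cxcl3 at 22.9 (11.2 to 35.2), Cxcl14 at 5.61 (4.27 to 7.49), Cxcl9 at 3.40 (1.90 to 5.06) and Cxcl12 at 0.929 (0.660 to 1.06). Apart from Pf4 with Cxcl2 and Cxcl14 with Cxcl9, no neighbors in this order overlapped in range. With the longest annotated transcript of any kind in its place, Cxcl3 was at 6.65 (3.26 to 10.2) and then overlapped Cxcl14, Cxcl10 was at 56.5 (43.4 to 71.4) and Cxcl1 at 147 (94.3 to 217). The Cxcr3 ligands therefore differed widely in level, with Cxcl10 far above Cxcl9 in all 6 samples. Cxcl16, a transmembrane chemokine of myeloid cells that is no member, had 277 per kilobase and overlapped the range of Cxcl1, but not with the longest annotated transcript.

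**Figure D2:**
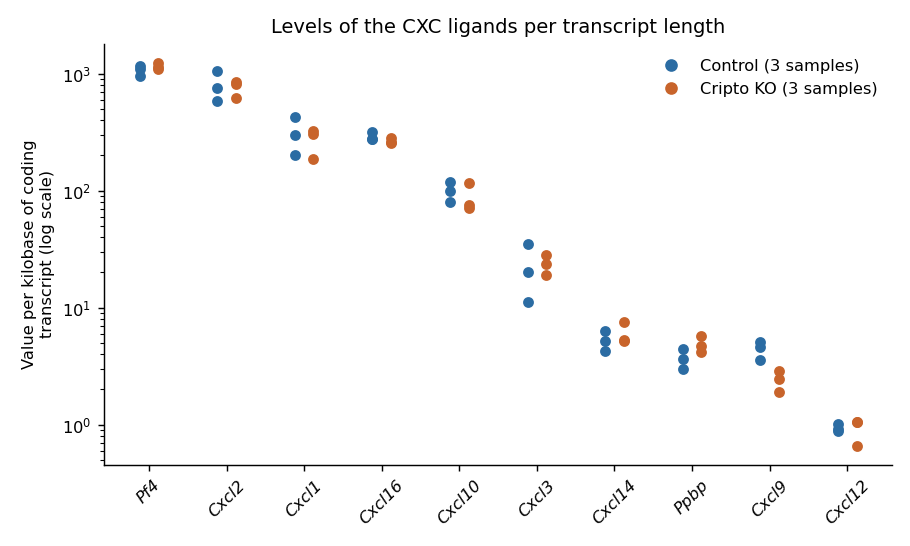
Value per kilobase of coding transcript on a log axis for the 8 genes and for Cxcl16 and Ppbp, with Control samples in blue and Cripto KO samples in orange, 1 point a sample. Pf4 and Cxcl2 are at the top and Cxcl12 at the bottom, and Cxcl9 is the one gene of the 8 whose blue and orange points separate.

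The question of the comparison was whether loss of Cripto changes the expression profile of Ly6CLow MPs. None of the 8 genes had an adjusted p-value under 0.05 (limma, over all 13008 genes), against 17 genes or 0.131% of the table. Among the 8, 1 gene (Cxcl9) passed at an unadjusted p-value of 0.05, against 8.59% of all genes, and 1 gene (again Cxcl9) had groups that did not overlap, against 14.5% of all genes in either direction and 8.02% with Control higher. With 8 genes, these counts are near the background. The median log2 fold change (Control minus Cripto KO) over the 8 genes was 0.04, with 5 positive and 3 negative, against 0.01 over all genes.

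Cxcl9, a CXCR3 ligand, had normalized values (per 1000000 reads) of 14.6, 13.2 and 10.2 in the Control samples against 7.08, 8.32 and 5.48 in the Cripto KO samples. All 3 Control samples lay above all 3 Cripto KO samples. These values rest on 198, 174 and 125 reads in the Control samples against 111, 117 and 79 in the Cripto KO samples. The mean was 12.7 ± 2.23 (SD, n = 3) in the Control samples against 6.96 ± 1.42 (SD, n = 3) in the Cripto KO samples. The log2 fold change was 0.87 with a standard error of 0.19, or 1.83-fold with a 95% interval of 1.35 to 2.48. The unadjusted p-value of 0.0015 placed the gene at rank 68, and its adjusted p-value of 0.285 (limma) did not pass. Over 18 alternatives the log2 fold change stayed positive, between 0.71 and 1.02, and the adjusted p-value ranged from 0.0195 to 0.729, passing in 1, DESeq2 on the recovered reads. Without Control replicate 1 the log2 fold change was 0.76 (adjusted p = 0.276, limma) and without Control replicate 2 it was 0.83 (adjusted p = 0.467, limma).

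Cxcl10, the other interferon-induced ligand of CXCR3, had values of 108, 159 and 133 in the Control samples against 156, 102 and 96.9 in the Cripto KO samples. Its groups overlapped, as Control replicate 1 lay below the other 2 Control samples and Cripto KO replicate 1 above the other 2 Cripto KO samples. The mean was 134 ± 25.5 (SD, n = 3) in the Control samples against 118 ± 32.6 (SD, n = 3) in the Cripto KO samples. The log2 fold change was 0.19 with a standard error of 0.19 (adjusted p = 0.815, limma), and the 95% interval of the fold was 0.850 to 1.53. Leaving out samples, it was 0.33 without Control replicate 1 (adjusted p = 0.566, limma), 0.05 without Control replicate 2 (0.963) and 0.41 without Cripto KO replicate 1 (0.607). With both samples numbered 1 left out, an alternative chosen after seeing the data that leaves 2 samples a group, it was 0.55 with an adjusted p-value of 0.0461 (limma). Cxcl9 and Cxcl10 thus differed in which samples were high: Cxcl9 as a percentage of Cxcl10 was 13.5, 8.29 and 7.69 in the Control samples against 4.54, 8.14 and 5.66 in the Cripto KO samples. On this ratio of the 2 genes' values, Control replicate 3 lay below Cripto KO replicate 2.

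**Figure D3:**
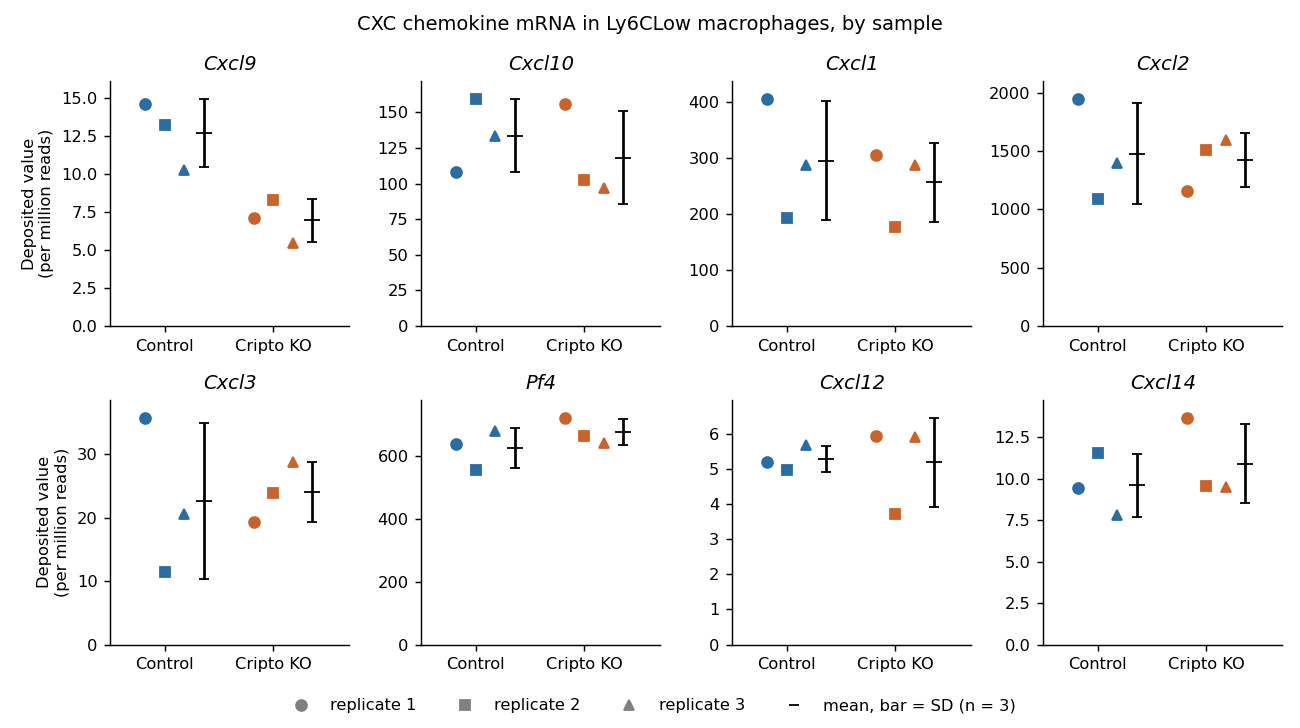
Normalized value per 1000000 reads of each of the 8 genes (y axis from 0) in 3 Control samples (blue) and 3 Cripto KO samples (orange), with the marker giving the replicate number and the black bar the mean and SD. The 3 Control values of Cxcl9 (10.2 to 14.6) lie above the 3 Cripto KO values (5.48 to 8.32), and the groups overlap in the other 7 genes.

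The neutrophil attractants showed no separation of the groups. Cxcl1 was 405, 193 and 287 in the Control samples against 306, 176 and 288 in the Cripto KO samples. The highest sample was Control replicate 1, and the lowest of each group was its replicate 2. The log2 fold change was 0.18 (standard error 0.27, adjusted p = 0.892, limma), with a 95% interval of the fold from 0.741 to 1.73. It was -0.083 without Control replicate 1, 0.45 without Control replicate 2 and -0.072 without Cripto KO replicate 2, so leaving out 1 sample turned its direction.

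Cxcl2, the most abundant of the neutrophil attractants, was 1943, 1092 and 1398 in the Control samples against 1160.1, 1511 and 1590.1 in the Cripto KO samples. Control replicate 1 was highest and Control replicate 2 lowest, so that all 3 Cripto KO values lay within the range of Control. The log2 fold change was 0.03 (standard error 0.20, adjusted p = 0.978, limma), with a 95% interval of the fold from 0.750 to 1.39. It was -0.19 without Control replicate 1, 0.23 without Control replicate 2, -0.11 without Cripto KO replicate 1 and -0.33 without both (adjusted p = 0.301, limma).

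Cxcl3, which shares 5.46% of its 31-base words with other genes, most with Cxcl2, was 35.7, 11.4 and 20.5 in the Control samples against 19.3, 23.9 and 28.8 in the Cripto KO samples. Here too Control replicate 1 was highest and Control replicate 2 lowest, a spread of 3.14-fold over the 6 samples. For Cxcl3 the log2 fold change was -0.22 (standard error 0.35, adjusted p = 0.894, limma), with a 95% interval of the fold from 0.499 to 1.47. Without Control replicate 1 it was -0.63, and without Control replicate 2 it was 0.19. With both samples numbered 1 left out it was -0.78 (adjusted p = 0.26, limma), opposite in sign to Cxcl10 in that fit. Cxcl2 shared 7.59% of its words with other genes and Cxcl1 none, so reads of Cxcl2 and Cxcl3 could in part be split between them.

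Pf4, the platelet factor that MPs also make, was the steadiest of the 8 genes, with values of 641, 558 and 681 in the Control samples against 724, 667 and 642 in the Cripto KO samples. Its highest and lowest samples differed 1.3-fold, and the groups overlapped. The mean was 627 ± 62.7 (SD, n = 3) in the Control samples against 678 ± 41.8 (SD, n = 3) in the Cripto KO samples. Pf4 had a log2 fold change of -0.12 with a standard error of 0.09 (adjusted p = 0.754, limma) and a 95% interval of the fold from 0.803 to 1.06. It was -0.035 without Control replicate 2, -0.067 without Cripto KO replicate 1 and -0.18 without Control replicate 3. Ppbp, its neighbor 2371 bases away and also a platelet chemokine, was 4.82, 3.22 and 3.96 in the Control samples against 6.25, 4.50 and 5.07 in the Cripto KO samples (log2 difference -0.40, standard error 0.22, adjusted p = 0.668, limma). Ppbp was between 0.576% and 0.864% of the value of Pf4 in every sample. Of 12 listed platelet genes the table holds 3 (Ppbp, Clec1b and Itga2b), which summed to 5.03 to 5.92 in the Control samples against 6.19 to 8.41 in the Cripto KO samples. Ppbp made up most of this sum, and the groups overlapped in each of the 3 genes. Clec1b had a log2 fold change of 0.04, opposite in sign to the other genes of the sum. Clec1b was at most 1.51 and Itga2b, the platelet integrin, at most 1.05, and Pf4 was above 558 in all samples. These values are not per kilobase, and the part of platelets in the Pf4 values was not tested.

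Cxcl12, the ligand of CXCR4, was low at 5.19, 4.96 and 5.67 in the Control samples against 5.94, 3.72 and 5.89 in the Cripto KO samples. The 2 groups overlapped, with Cripto KO replicate 2 lowest. For Cxcl12 the log2 fold change was 0.06 (standard error 0.22, adjusted p = 0.963, limma), -0.17 without that sample, 0.099 without Control replicate 2, 0.0018 without Control replicate 3 and 0.17 without Cripto KO replicate 1, with a 95% interval of the fold from 0.740 to 1.46. Cxcl14 was 9.46, 11.5 and 7.79 in the Control samples against 13.7, 9.59 and 9.48 in the Cripto KO samples, with Cripto KO replicate 1 highest. Its log2 fold change was -0.18 (standard error 0.20, adjusted p = 0.826, limma), with a 95% interval of the fold from 0.649 to 1.2. It was -0.32 without Control replicate 2, -0.042 without Control replicate 3 and -0.0088 without Cripto KO replicate 1. Both genes are known from stromal cells, and the 10 fibroblast genes summed to 469 to 493 in the Control samples against 554 to 602 in the Cripto KO samples, led by Col1a1 (191 to 244) and Col3a1 (138 to 194). None of the 10 had an adjusted p-value under 0.05, and 5 had an unadjusted one under 0.05, all higher in Cripto KO, against 8.59% of all genes in either direction. The 10 endothelial genes, led by Pecam1 (16.2 to 21.2) and Vwf (12.6 to 17.9), summed to 63.8 to 76.1 in the Control samples against 70.4 to 76.8 in the Cripto KO samples. The part of these cells in Cxcl12 and Cxcl14 was not tested.

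**Figure D4:**
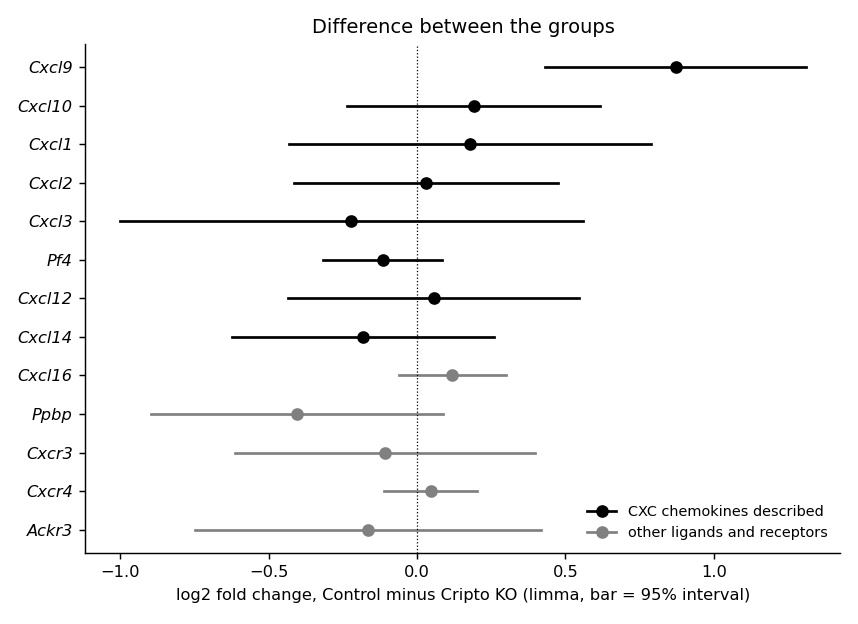
Log2 fold change (Control minus Cripto KO, x axis) with its 95% interval from limma for the 8 genes (black) and for other CXC ligands and receptors (grey). The interval of Cxcl9 (0.43 to 1.31) lies above 0 before adjustment for multiple testing, and those of the other 12 genes shown include 0.

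Set side by side, Cxcl9 had a log2 fold change of 0.87 and Cxcl10 one of 0.19, whereas Cxcl1, Cxcl2 and Pf4 had 0.18, 0.03 and -0.12. This contrast was proposed with results of these data known, and no test was made of it. The mean log2 value of Cxcl9 and Cxcl10 minus that of Cxcl1, Cxcl2 and Pf4 was -4.32, -3.42 and -4.14 in the Control samples against -4.26, -4.27 and -4.85 in the Cripto KO samples. Control replicate 1 lay below 2 of the Cripto KO samples on this measure, so the groups overlapped. The pair of interferon-induced genes therefore did not separate the groups as Cxcl9 alone did.

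The groups overlapped in 7 of the 8 genes, and the genes differed in which samples were high. Over the 6 samples, which share their libraries between all genes, the Pearson correlation of log2 values was 0.93 between Cxcl2 and Cxcl3, 0.52 between Cxcl1 and Cxcl2 and 0.30 between Cxcl9 and Cxcl10. It was -0.85 between Cxcl2 and Cxcl10. Reads of Cxcl2 and Cxcl3 could in part be split between them, and the part of this in their correlation was not tested. Relative to its mean over the samples, Cxcl2 was at 0.45 (log2) in Control replicate 1 and at -0.38 in Control replicate 2, while Cxcl10 was at -0.19 and 0.37 in the same samples. Cxcl10 was 5.57%, 14.6% and 9.53% of Cxcl2 in the Control samples against 13.4%, 6.76% and 6.09% in the Cripto KO samples. Cxcl1 was 20.9%, 17.7% and 20.5% of Cxcl2 in the Control samples against 26.4%, 11.7% and 18.1% in the Cripto KO samples, a wider spread in Cripto KO.

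**Figure D5:**
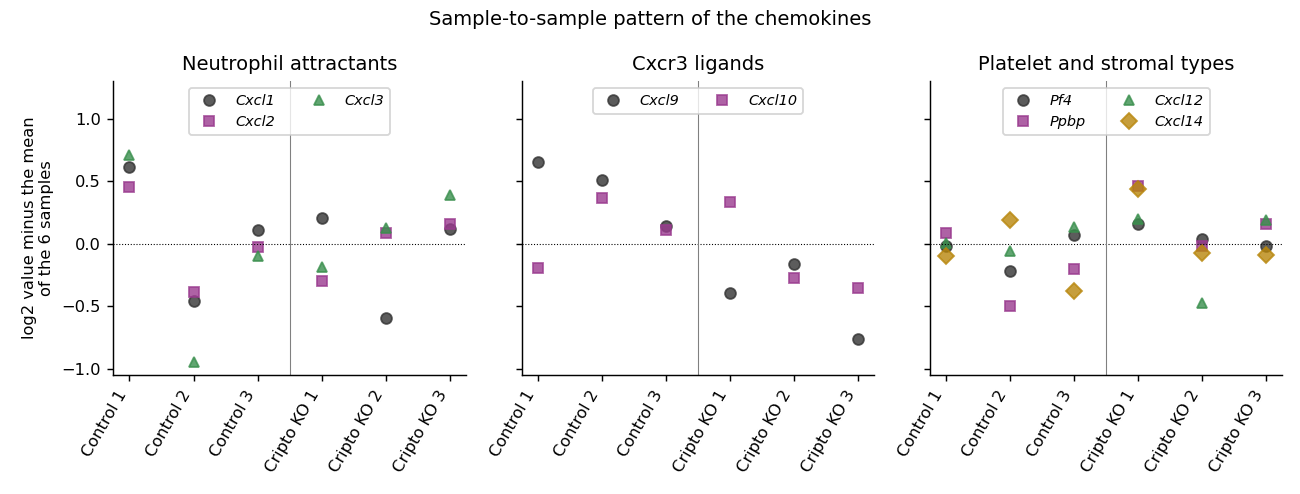
Log2 value of each gene minus its mean over the 6 samples (y axis), by sample (x axis), for the neutrophil attractants, the ligands of CXCR3, and platelet and stromal chemokines. Control replicates 1 and 2 are the extremes for Cxcl2 and Cxcl3 (0.71 and -0.94 for Cxcl3), and Cxcl10 takes the opposite order in these samples.

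Among 9239 other genes with a mean value of at least 5, those whose log2 values over the 6 samples were most like Cxcl9 were Limd2, Dhx40, Krtcap2, Sdf2 and Dek (Pearson r between 0.984 and 0.988). For Cxcl10 they were Hlx, Bmp2, Gpr157, Mrps2 and Eif2b5 (0.986 to 0.997), for Cxcl1 Aup1, Ep400, Anapc11, Uba7 and Llph (0.959 to 0.987), for Cxcl2 Clk3, Emb, Txnrd1, Mbp and Zcchc2 (0.992 to 0.999), and for Pf4 Phpt1, Clk2, Wbp1, 4930455G09Rik and Stxbp2 (0.964 to 0.980). With 6 samples and so many genes, high correlations arise for many genes: 97 genes had at least 0.95 with Cxcl2, 34 with Cxcl9, 33 with Cxcl10, 6 with Pf4 and 5 with Cxcl1. No CXC ligand or receptor was among the 25 genes named.

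Of the receptors, Cxcr4 was abundant and even, at 662, 627 and 701 in the Control samples against 659, 614 and 654 in the Cripto KO samples (log2 fold change 0.05, adjusted p = 0.893, limma). It was therefore far above its ligand Cxcl12 per kilobase, at 362 against 0.929. Cxcr3, the receptor of Cxcl9 and Cxcl10, was 6.59, 4.43 and 4.12 in the Control samples against 6.25, 4.64 and 5.20 in the Cripto KO samples (log2 fold change -0.11, adjusted p = 0.923, limma). Ackr3, a scavenging receptor of Cxcl12, was between 1.66 and 2.19, and Cxcr2, the receptor of the neutrophil attractants, between 0.413 and 1.14. The values of these 4 receptors overlapped between the groups. Among the other ligands, Cxcl16 was 853, 742 and 744 in the Control samples against 688, 762 and 701 in the Cripto KO samples (log2 fold change 0.12, adjusted p = 0.722, limma). Cxcl13, a B-cell attractant, had 0 reads in some samples and at most 5 in any, around the floor of 3 reads.

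Genes of the interferon path to Cxcl9 and Cxcl10 were read from a list of 14, of which 13 were present. None passed the threshold over all genes. Irf7 and Jak1 had an unadjusted p-value under 0.05 (limma), with higher mean values in Control, against 8.59% of all genes in either direction. The median log2 fold change of the 13 genes was 0.08, with 11 positive and 2 negative, against 0.01 over all genes, of which 6839 were positive and 6169 negative. The list mixes genes that promote and genes that restrain the path, so these signs give no direction for it. Irf7, a factor of the type I interferon response, was 463, 333 and 298 in the Control samples against 308, 233 and 255 in the Cripto KO samples (log2 difference 0.44, standard error 0.16, adjusted p = 0.512, limma), and the difference was 0.26 without Control replicate 1 (adjusted p = 0.477, limma). Jak1, a kinase of interferon receptors, was 181 to 187 in the Control samples against 158 to 169 in the Cripto KO samples (0.15, adjusted p = 0.537, limma). The receptor genes Ifngr1 and Ifngr2 had log2 fold changes of -0.0086 and 0.08. Of 12 listed genes of T and NK cells, the sources of interferon-gamma, the table holds 1, Cd4, which MPs also express (95.1, 80.5 and 74.6 in the Control samples against 62.3, 77.6 and 64.0 in the Cripto KO samples). The 10 dendritic cell genes, of which 8 were present, led by Batf3 (14.6 to 18.1) and Fscn1 (6.00 to 9.18), summed to 29.6 to 37.2 in the Control samples against 32.5 to 36.3 in the Cripto KO samples. Of the 10 muscle fiber genes none had an adjusted p-value under 0.05 (limma), and 8 had an unadjusted one under 0.05, each with a higher mean in Control, against 8.59% of all genes. Their median log2 fold change was 1.54, with 9 positive and 1 negative, against 0.01 over all genes. It was largest for Myh4, at 18.1, 7.08 and 6.32 in the Control samples against 5.62, 0.814 and 0.103 in the Cripto KO samples. The log2 difference of Myh4 was 3.58 (adjusted p = 0.493, limma), with as few as 1 read in a Cripto KO sample. Acta1, the most abundant (5.82 to 19.4), was not among those 8 and was highest in Cripto KO replicate 1. Tnni2 (6.72 to 13.3) was higher in all 3 Control samples. The 10 muscle fiber genes summed to 101.7, 52.9 and 47.8 in the Control samples against 68.1, 25.3 and 20.9 in the Cripto KO samples. With both samples numbered 1 left out, the log2 fold change of Cxcl9 was 0.78 (adjusted p = 0.246, limma). The samples kept in that fit still differed in muscle fiber sums, at 52.9 and 47.8 in Control against 25.3 and 20.9 in Cripto KO. That fit therefore does not separate Cxcl9 from muscle fiber RNA. The part of muscle fiber RNA in the Cxcl9 values was not tested.

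Of 18 genes of the NF-κB path to Cxcl1, Cxcl2 and Cxcl3, all were present and none passed the threshold over all genes. Their median was 0.10 on the log2 scale, with 15 positive and 3 negative, against 0.01 over all genes, with 6839 positive and 6169 negative. Here too the list mixes genes that promote and genes that restrain the path, so the signs give no direction for it. An unadjusted p-value under 0.05 was found for 3 genes (Nfkbiz, Tlr2 and Il1r1), with higher values in Control, against 8.59% of all genes. Nfkbiz, which encodes a nuclear cofactor of NF-κB, was 267, 276 and 293 in the Control samples against 242, 215 and 223 in the Cripto KO samples (log2 difference 0.30, standard error 0.07, adjusted p = 0.327, limma). Tlr2, a receptor of bacterial lipoproteins, was 583, 532 and 549.8 in the Control samples against 443, 517 and 437 in the Cripto KO samples (0.26, standard error 0.08, adjusted p = 0.479, limma), and Il1r1, the interleukin-1 receptor, was low, between 1.48 and 3.13. Tnf, which induces these chemokines, had close values in both groups (0.999-fold, 95% interval 0.872 to 1.15, 155 to 189 over all samples). Of 10 neutrophil genes 9 were present, led by Csf3r (91 to 104), which MPs also express, and Mmp8 (6.52 to 10.1), and they summed to 107 to 115 in the Control samples against 101 to 111 in the Cripto KO samples. S100a8 had 8 to 22 reads in a sample. S100a9, Retnlg and Ngp were listed at 0 reads in all 6 samples, and whether these zeros are measured values could not be checked, so nothing is read from them.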

How the data were processed

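RNA was extracted from FACS-isolated MPs and libraries were made by the authors with the NEBNext Ultra kit and sequenced on an Illumina HiSeq instrument. The authors trimmed reads with Cutadapt 1.7.1, dropping those under 30 bp, used RSEM 1.2.20 to map and quantify the rest against mouse transcripts (GRCm38, release 91) and normalized them with LIMMA. The deposited table gives each gene a normalized signal in each sample, which equals its reads with 0.5 added, per 1000000 reads of the scaled library. RSEM splits reads of similar genes by estimate, so close paralogs are less certain. Whole reads were recovered from 100.0% of 78048 values within 0.01 read.

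Groups were compared with limma (version 3.58.1, R 4.3.3) on log2 values with a variance trend, without pseudocount or replicate block, over all 13008 genes, with Benjamini-Hochberg adjustment and a threshold of 0.05. The 95% intervals of folds come from this fit. Transcript lengths, positions and 31-base words were taken from GENCODE mouse release 21. Alternatives tried were adding a pseudocount (0.5 or 1), keeping genes with a mean of 1 or more, median centring, quantile normalization, no or robust variance trend, voom, the edgeR quasi-likelihood test (4.0.16, 17 genes), DESeq2 (1.42.0, 74 genes), a replicate block, leaving out each sample, the longest transcript, and, chosen after seeing the data, leaving out both samples numbered 1. The tests were tested on simulated data. The genes, lists and contrast were chosen with earlier results of these data known. Named genes are the CXC ligands and receptors, members of the path lists with an unadjusted p-value under 0.05, the 5 genes most like each of 5 members and the 2 most abundant genes of each cell type list, and others named were chosen after their values were seen. A gene that this rule names is not reported here. Samples of a group were treated as replicates as labelled. Python 3.11.15 with pandas 2.3.3 and matplotlib 3.10.9 was used.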

Additional observations from a re-analysis of the deposited data

How the results depend on the processing

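The number of genes past the threshold was 17 in the fit reported, 6 with quantile normalization, 5 without a variance trend, 31 with the robust option, 9 with voom weights, 74 with DESeq2, 2 with the replicate block and 83 with both samples numbered 1 left out, and leaving out 1 sample gave between 5 and 31. The cause was not tested. Of the 8 chemokines, 1 passed with DESeq2 (Cxcl9, log2 fold change 0.86) and 1 with both samples numbered 1 left out (Cxcl10, 0.55), and in the other alternatives none did, the replicate block included. Same-numbered samples did not deviate together over the genes as a whole (correlations of -0.21, -0.005 and 0). With 3 samples a group, these correlations cannot show whether same-numbered samples share a batch, and the block rests on the numbers alone. Directions reversed when 1 sample was left out for Cxcl1 (-0.083 to 0.45 over those fits), Cxcl2 (-0.19 to 0.23), Cxcl3 (-0.63 to 0.19), Cxcl12 (-0.17 to 0.17) and Cxcr3 (-0.32 to 0.021), for Cxcl2 with both samples numbered 1 left out (-0.33), and for Cxcr4 with quantile normalization (-0.0058). Cxcl9, Cxcl10, Cxcl14 and Pf4 kept their direction in all 18 alternatives. With the longest annotated transcript, the level per kilobase fell to 147 for Cxcl1, 6.65 for Cxcl3 and 56.5 for Cxcl10. Intervals cover the spread between 3 samples a group, and genes with few reads, such as Cxcl13, could not be compared at this depth.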

Other observations

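Immediate-early genes are transcribed within minutes of a stimulus, and tissue digestion is known to induce them. All 12 listed immediate-early genes were present, and they summed from 12786 to 13447 in the Control samples against 12753 to 13446 in the Cripto KO samples. None passed the threshold over all genes (limma). Atf3, a stress-induced transcription factor, was 1368, 1568 and 1504 in the Control samples against 1291, 1304 and 1171 in the Cripto KO samples, a log2 difference of 0.24 (limma adjusted p = 0.5). Btg2, an antiproliferative gene, was 168, 175 and 144 in the Control samples against 209, 169.9 and 199 in the Cripto KO samples, a log2 difference of -0.25 (limma adjusted p = 0.537). Their part in the chemokine values was not tested.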
